A study of Mus musculus with 18 samples.

Results

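Bidirectional promoters were examined as pairs of protein-coding genes that lie on opposite strands and point away from each other, with transcription start sites (TSS) at most 1000 bp apart. The gene records of GENCODE M21 on GRCm38 gave 755 such pairs, which held 1489 of 21938 protein-coding genes, and 21 genes were in more than 1 pair. Each region ran from 2 kb outside one TSS to 2 kb outside the other, with a median length of 4130 bp. The other 20449 protein-coding genes, each taken 2 kb to either side of its TSS, served for comparison, and 10083 of them had a CpG island within 500 bp. The choice of members used gene positions only and no ChIP-seq value.

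KDM2A and H3K36me2 had been mapped by ChIP-seq in splenic B cells of wildtype mice (WT) and of mice without Mir155, the gene of the microRNA miR-155 (KO). The mice were of both sexes on a C57BL/6 background. B cells of both genotypes were enriched by removal of cells with CD43, Ter119 or CD4, stimulated with anti-CD40, anti-IgM and IL-4, and kept for 2 days at 1% O2, and no library came from normoxic or unstimulated cells. Each genotype and antibody had 3 libraries, of which replicate 1 was male and the others female, and 12 lists were used. Labels did not say whether replicates were separate mice, so p-values measure the spread between libraries. Mir155 loss in KO and the B cell identity could not be checked, because peak lists report no RNA. KDM2A lists held 23372 to 29105 peaks in WT and 15387 to 21705 in KO, and H3K36me2 lists held 85387 to 94136 in WT and 106720, 37447 and 45180 in KO replicates 1, 2 and 3. Read depths are unknown, so fewer called peaks and less binding cannot be told apart.

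A bidirectional promoter drives transcription outward in both directions from a short shared stretch of DNA, which is usually rich in CpG and free of a TATA box. Genes for housekeeping tasks such as DNA repair, mitochondrial translation and histone supply are known to be arranged this way. KDM2A is a demethylase that removes methyl groups from lysine 36 of histone H3, and its CXXC zinc finger binds unmethylated CpG. H3K36me2, its substrate, is typically low at active CpG island promoters and spreads over gene bodies and intergenic chromatin.

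The DNA between the 2 start sites is short in most pairs, and 9 examples are printed with CpG in capitals, on the plus strand of GRCm38. No exon of GENCODE M21 lies in any of these stretches. Ddx5/Cep95 and Rad9b/Vps29 are shown as pairs of high KDM2A fold, Ptcd1/Cpsf4 and Usp5/Cdca3 as the pairs whose fold differed most upward and among the most downward in KO, and Hist1h2ac/Hist1h2bc as a histone pair. Pex11a/Wdr93 and Col4a4/Col4a3 had no KDM2A peak, and Nmur1/Tex44 and Surf4/Stkld1 had the widest H3K36me2 cover in WT.
Ddx5/Cep95, chr11:106789186-106789251: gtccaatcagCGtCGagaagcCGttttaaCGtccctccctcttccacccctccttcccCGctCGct
Rad9b/Vps29, chr5:122354234-122354368: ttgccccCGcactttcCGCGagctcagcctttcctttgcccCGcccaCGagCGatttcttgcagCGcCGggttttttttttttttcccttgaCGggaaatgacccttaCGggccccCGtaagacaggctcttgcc
Ptcd1/Cpsf4, chr5:145167109-145167212: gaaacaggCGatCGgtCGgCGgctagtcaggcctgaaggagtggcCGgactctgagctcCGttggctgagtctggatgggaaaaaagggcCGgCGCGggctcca
Usp5/Cdca3, chr6:124829485-124829546: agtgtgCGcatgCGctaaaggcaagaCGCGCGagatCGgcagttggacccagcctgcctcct
Hist1h2ac/Hist1h2bc, chr13:23683949-23684198: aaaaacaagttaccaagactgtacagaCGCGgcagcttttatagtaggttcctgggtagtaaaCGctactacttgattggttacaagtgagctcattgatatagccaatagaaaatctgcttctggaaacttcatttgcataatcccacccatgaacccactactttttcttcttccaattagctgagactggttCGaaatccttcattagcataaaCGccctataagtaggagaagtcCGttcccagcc
Pex11a/Wdr93, chr7:79743132-79743162: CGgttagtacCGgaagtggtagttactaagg
Col4a4/Col4a3, chr1:82586850-82586920: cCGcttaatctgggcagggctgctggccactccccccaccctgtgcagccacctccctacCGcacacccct
Nmur1/Tex44, chr1:86426229-86426328: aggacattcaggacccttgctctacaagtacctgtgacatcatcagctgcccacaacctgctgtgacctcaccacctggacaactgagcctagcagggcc
Surf4/Stkld1, chr2:26933929-26934046: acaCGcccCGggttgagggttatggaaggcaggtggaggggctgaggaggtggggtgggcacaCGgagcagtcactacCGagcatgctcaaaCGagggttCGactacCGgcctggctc

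These stretches differed in CpG. Ddx5/Cep95 held 6 CpG in 66 bp, Rad9b/Vps29 11 in 135 bp, Ptcd1/Cpsf4 9 in 104 bp and Usp5/Cdca3 6 in 62 bp. The histone stretch held 6 in 250 bp with a GC content of 41.6%, and it contained CCAAT and TATAAA. Of the motifs searched below, the stretch of Ddx5/Cep95 held the CCAAT box, that of Rad9b/Vps29 the GC box, that of Usp5/Cdca3 the NRF1 core and that of Pex11a/Wdr93 the ETS core. Pex11a/Wdr93 and Col4a4/Col4a3 held 2 CpG each, and Nmur1/Tex44 held none in 100 bp.

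Over all pairs the median TSS spacing was 129 bp (range 0 to 987 bp), and 619 pairs lay under 300 bp. A CpG island lay within 500 bp of the midpoint in 680 of 755 pairs (90.1%), against 49.3% of the other promoters. The 300 bases around each TSS (250 before and 50 from it) held a median of 24 CpG in genes of pairs, 10 in the other genes and 21 in the other genes at islands. Short motifs were then searched as exact letters on both strands of the same 300 bases, as a description of the sequence only. TATAAA occurred in 4.10% of genes in pairs, 13.3% of the other genes and 6.72% of the other island genes. CCGGAAG, the core bound by ETS factors, occurred in 27.3%, 9.58% and 15.8%. AAGATGGCG, a YY1 core, occurred in 5.57%, 1.41% and 2.46%. The NRF1 core GCATGCGC occurred in 6.72%, 3.49% and 5.43%, and the CCAAT box CCAAT in 43.9%, 38.7% and 36.8%. The GC box GGGCGG occurred in 69.0%, 41.1% and 68.3%. The cyclic AMP response element TGACGTCA occurred in 4.50%, 2.28% and 3.40%, and the E box CACGTG in 11.4%, 7.49% and 10.7%. Windows of the genes of a close pair overlap, so their matches are not independent.

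The first comparison asked how often KDM2A was called at bidirectional promoters. KDM2A peaks were found at most of them and at a minority of the other promoters in every library. In WT, 84.9%, 82.5% and 83.0% of the 755 regions overlapped a KDM2A peak in replicates 1, 2 and 3, and in KO 73.1%, 72.8% and 81.9%. The other promoters had a peak in 40.5 to 41.7% of regions in WT and 32.8 to 38.9% in KO. The 6 values of the pairs therefore lay wholly above the 6 values of the other promoters. The mean share was 79.7% ± 5.31 at pairs and 38.0% ± 3.77 at other promoters (SD, n = 6 libraries each), a difference of 41.7 points (SD 1.63) with the same direction in 6 of 6 libraries (two-sided exact sign-flip test over libraries, p = 0.03125, the smallest possible). The difference was 16.1 points (SD 0.957) against the other promoters at CpG islands, whose share was 63.6% ± 4.86 (SD, n = 6; 6 of 6 libraries, exact p = 0.03125). Benjamini-Hochberg adjustment over the 36 comparisons between promoter classes turned each p of 0.03125 into 0.0352.

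**Figure D1:**
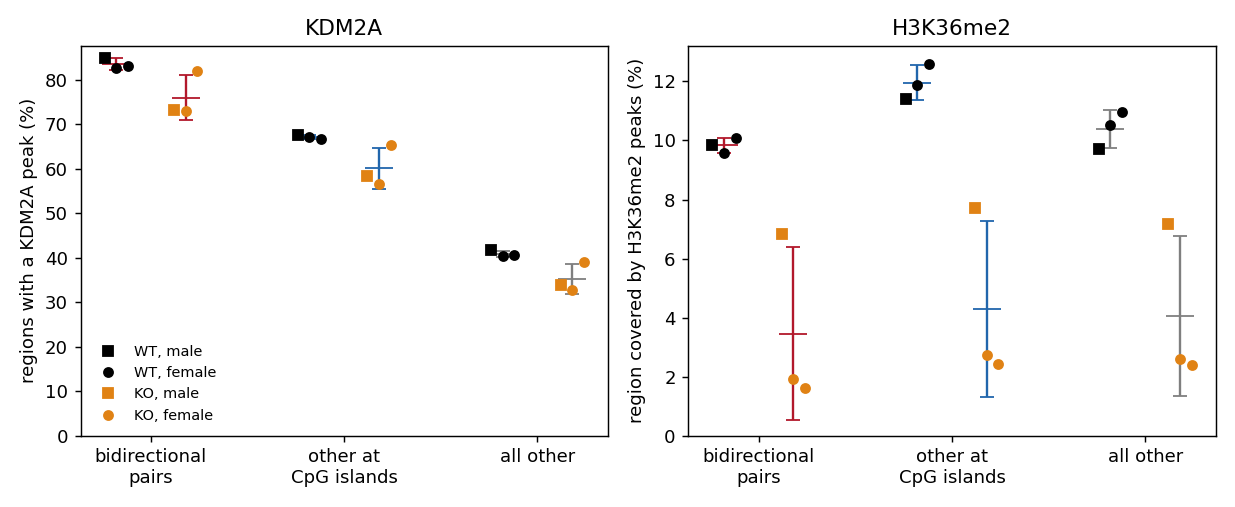
Left, percent of regions with a KDM2A peak, and right, mean percent of each region under H3K36me2 peaks, for bidirectional pairs, other promoters at CpG islands and all other promoters; each symbol is 1 library (square male, circle female), and bars are mean ± SD of 3 libraries. KDM2A shares of pairs lie at 72.8 to 84.9%, above both other classes, while H3K36me2 cover of the pairs lies at 9.57 to 10.1% in WT and 1.62 to 6.83% in KO.

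Promoters were next compared at like CpG number, counted in 1001 bases around the midpoint or TSS. Among regions with 40 to 59 CpG, 77.9% ± 2.28 of 198 pairs and 57.2% ± 1.58 of 3446 other promoters had a KDM2A peak in WT (SD, n = 3 libraries). Among regions with 80 or more, the shares were 93.0% ± 0.413 of 242 pairs and 75.8% ± 1.13 of 3288 other promoters (SD, n = 3). Few pairs were poor in CpG, and of 23 pairs with up to 19 CpG 26.1% ± 11.5 had a peak, against 10.1% ± 0.638 of 7595 other promoters (SD, n = 3). The pairs were higher in 6 of 6 libraries in each of the 5 CpG classes, by 14.6 to 20.3 points on average (exact sign-flip test, p = 0.03125 in each, 0.0446 adjusted over 10 tests).

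**Figure D2:**
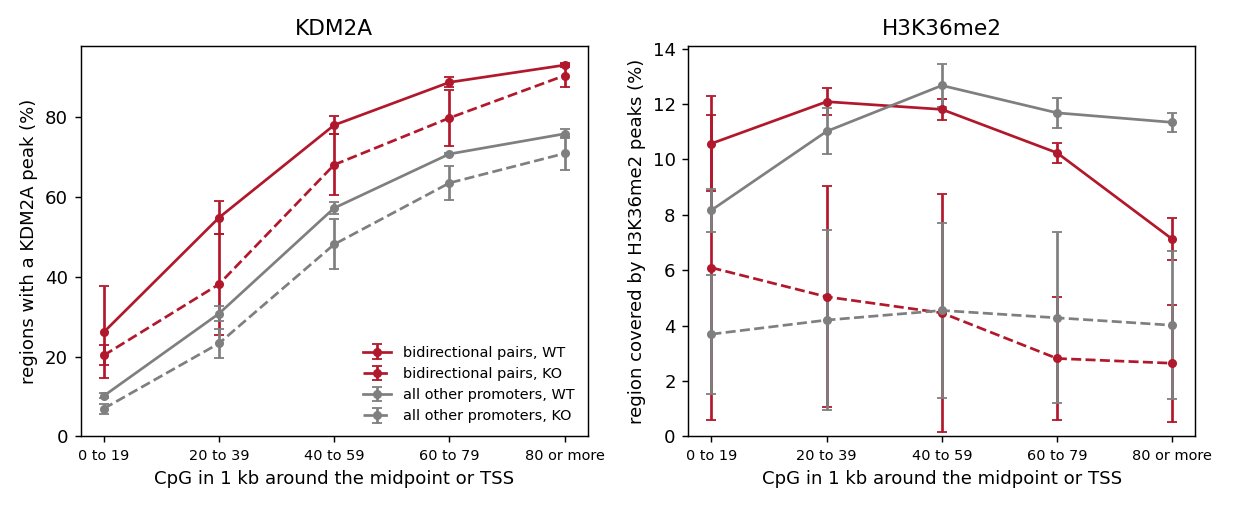
Percent of regions with a KDM2A peak (left) and percent of the region under H3K36me2 peaks (right) by number of CpG around the midpoint or TSS; points are means and bars SD of 3 libraries, solid lines WT and dashed lines KO. KDM2A shares climb with CpG number in both classes, from 26.1 to 93.0% in WT pairs, and in the KDM2A panel the lines of the pairs stay above those of the other promoters of the same genotype.

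The height of the peaks differed far less than their presence. At regions with a peak, the median of log2 highest fold (the peak caller's ratio over its control) was 1.60 ± 0.049 in pairs and 1.57 ± 0.046 in other promoters (SD, n = 6 libraries), a difference of 0.036 on the log2 scale in 6 of 6 libraries (exact p = 0.03125). Against island promoters it was 0.020 (6 of 6 libraries, exact p = 0.03125). With peaks of a fold over 3 only, the difference was 0.0043 (exact p = 0.4375). At like CpG number the median fold itself was higher in pairs in 6 of 6 libraries with 40 to 59 CpG (by 0.044) and with 80 or more (by 0.097; exact p = 0.03125 for both), but in 4 of 6 with up to 19, 3 of 6 with 20 to 39 and 3 of 6 with 60 to 79 CpG (exact p = 0.46875, 0.78125 and 0.71875). The strongest KDM2A peak of a pair was 879 bp wide in the median, and that of other promoters 825 bp (SD 109 and 96.9, n = 6; wider in 6 of 6 libraries, exact p = 0.03125).

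KDM2A cover of the pairs was highest around their midpoint. The median spacing was 129 bp and the strongest peak was 879 bp wide in the median. A centre between the genes therefore cannot be told apart from a centre on either TSS. The 1 kb centred on the midpoint was covered for 54.0% ± 6.47 by KDM2A peaks, against 21.7% ± 3.23 around other TSS and 38.8% ± 4.97 around other island TSS (SD, n = 6 libraries; 6 of 6, exact p = 0.03125 for both differences). The profile was highest in the 100 bp bins next to the midpoint, where 74.0% ± 2.36 of pairs lay under a peak in WT and 65.1% ± 6.87 did in KO (SD, n = 3). Over the 2.5 kb downstream of a TSS the order against island promoters turned, with 16.2% ± 3.32 covered in genes of pairs and 18.5% ± 3.32 in other island genes (SD, n = 6), a difference of −2.28 points in 6 of 6 libraries (exact p = 0.03125). Of all gene TSS, 68.8% ± 6.85 in pairs and 50.8% ± 5.54 among other island genes lay under a peak (SD, n = 6; 6 of 6 libraries, exact p = 0.03125).

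**Figure D3:**
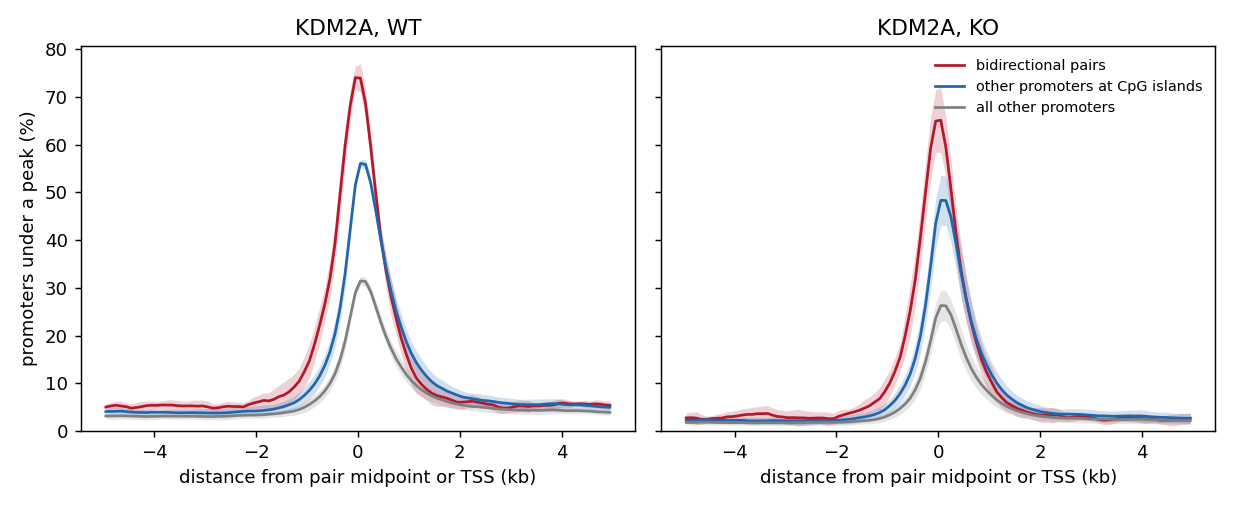
Percent of promoters under a KDM2A peak in bins of 100 bp up to 5 kb from the pair's midpoint or the gene's TSS (transcription of other promoters runs to the right; pairs are on the plus strand), as mean of 3 libraries with SD as shading, WT left and KO right. Bidirectional pairs reach 74.0% in WT and 65.1% in KO at the centre, and other island promoters 56.1% and 48.3%.

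A single KDM2A peak often spanned both start sites. This was so for 73.1%, 67.7% and 66.1% of the pairs in WT replicates 1 to 3 and for 54.3%, 54.4% and 65.8% in KO. WT libraries averaged 69.0% ± 3.68 and KO libraries 58.2% ± 6.62 (SD, n = 3), with every KO value below every WT value (exact permutation test, two-sided, p = 0.1, which is as low as 3 against 3 can go, 0.2125 adjusted over 34 genotype tests). KO lists were shorter, and the strongest peak of a pair was 819 bp wide in KO and 939 bp in WT (mean of library medians, overlapping). This share was not computed with lists of equal length. In 214 pairs 1 peak spanned both sites in all 6 lists. By spacing, the WT share went from 79.6% ± 4.92 of 129 pairs at up to 50 bp to 45.2% ± 6.75 of 70 pairs over 500 bp (SD, n = 3). The share of these pairs with any KDM2A peak was 87.1% ± 1.18 and 79.5% ± 3.60 (SD, n = 3), and a CpG island lay at 94.6% and 78.6% of them.

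Across libraries, 392 pairs (51.9%) had a KDM2A peak in all 6 lists and 41 (5.43%) in none, against 21.4% and 45.8% of the other promoters and 38.7% and 17.4% of the other island promoters. Pairs with a peak in all 6 lists included Ddx5/Cep95, of an RNA helicase and a centrosomal protein, with a highest fold of 4.19, 3.84 and 4.43 for WT replicates 1 to 3 and of 4.11, 3.82 and 3.99 for KO. The genotypes overlapped, and their fitted difference was −0.0023 ± 0.127 on the log2 scale (SE). Rad9b/Vps29, whose second gene encodes a subunit of the retromer, had 3.79, 3.89 and 4.44 in WT and 3.50, 3.72 and 4.21 in KO, again with overlap. Hspa1a/Hspa1l, on chr17:34970156-34974703, had the highest mean fold, with 3.51, 3.17 and 4.54 in WT and 3.51, 6.21 and 4.96 in KO. Hspa1a is the heat-inducible HSP70 gene and has a near-identical neighbouring copy, Hspa1b, so reads there may be split between copies.

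Of the 41 pairs without a KDM2A peak in any list, 20 had no CpG island within 500 bp, which was so for 75 of all 755 pairs. Those with the closest start sites included Pex11a/Wdr93 (32 bp apart, an island, 53 CpG in 1001 bases), of which Pex11a acts in peroxisome division. Best1/Rab3il1, with a chloride channel gene of the retina, had 7 CpG, and Kctd19/Lrrc36 had 45. Col4a4/Col4a3, of basement membrane collagen IV chains, had 42 and no island. Absence from the lists says only that no peak was called at these unknown depths.

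Histone genes formed the group with the highest KDM2A fold among the 8 gene groups taken by symbol, a ranking that was not tested. Proteasome pairs (3.25 ± 0.275) and chaperone pairs (3.22 ± 0.170) came next in WT (SD, n = 3 libraries). Of 14 histone pairs, 13 of which joined 2 histone genes, 9 had a KDM2A peak in all 6 lists, and their median highest fold was 3.36 ± 0.119 in WT and 3.26 ± 0.139 in KO, against 3.10 ± 0.127 and 2.98 ± 0.038 over all 755 pairs (SD, n = 3 libraries). Hist1h2ac/Hist1h2bc had 3.55, 4.57 and 3.52 in WT and 3.38, 3.57 and 3.02 in KO. The pair with no peak in any list was Hist1h2ba/Hist1h2aa, whose genes encode testis histones, and it was named after its values were seen. Histone genes are near-identical copies, so uniquely placed reads there may be few.

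The other 7 groups were read against all pairs in the same way. A KDM2A peak in all 6 lists was seen at 18 of 46 pairs with a nuclear gene of a mitochondrial protein, 9 of 26 with a gene of DNA replication or repair, 9 of 18 with a Zfp zinc finger gene, 4 of 8 with a proteasome gene, 8 of 12 with a chaperone gene, 5 of 9 with an RNA polymerase subunit and 11 of 23 with a Tmem gene. The share over all pairs was 51.9%, so the first and second groups (39.1% and 34.6%) lay below it and chaperones (66.7%) above, in small numbers and without a test. In WT the mitochondrial group had a peak in 83.3% ± 3.32 of pairs, close to the 83.5% ± 1.25 of all pairs, and in KO 71.7% ± 5.75 against 75.9% ± 5.13 (SD, n = 3). Outside the histones, at most 2 pairs of a group joined 2 of its genes, so most partners belong to no group.

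Several textbook bidirectional pairs that met the rule are given with all libraries. Gart/Son, of a purine synthesis enzyme and a splicing factor, had a fold of 3.03, 3.80 and 3.48 in WT and 3.60, 2.95 and 3.02 in KO, with 1 peak over both start sites in each list. Atm/Npat, of the DNA damage kinase and an activator of histone genes, had 2.94, 2.87 and 3.15 in WT, 2.67 and 2.91 in KO replicates 1 and 3, and no peak in KO replicate 2. Mcm4/Prkdc, of a replicative helicase subunit and the DNA-PK catalytic subunit, had 2.42 and 3.10 in WT replicates 1 and 3, no peak in replicate 2, and 2.77, 2.97 and 3.39 in KO. Pdcd10/Serpini1 had 2.93, 3.31 and 3.22 in WT, 3.16 and 2.63 in KO replicates 1 and 2, and none in replicate 3. No H3K36me2 peak touched the first 3 of these regions in any of the 6 lists, whereas Pdcd10/Serpini1 was covered for 0%, 28.5% and 32.5% in WT and 0.192%, 6.54% and 7.48% in KO. Some textbook pairs, Hspd1/Hspe1 among them, were outside the rule because the 5′ ends of their gene records overlap.

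Such pairs with overlapping 5′ ends, 456 in all, were the most alike class and were counted with the other promoters. Their KDM2A share was 78.8% ± 4.95, and the pairs of the rule exceeded it by 0.875 points (SD 1.89, n = 6 libraries; higher in 4 of 6, exact sign-flip test, p = 0.3125, 0.375 adjusted over 6 tests). Their H3K36me2 share was 35.4% ± 16.8, 2.40 points above that of the pairs of the rule in 6 of 6 libraries (SD, n = 6; exact p = 0.03125, 0.1875 adjusted). With these pairs counted as members, the KDM2A difference from the remaining promoters was 43.2 points.

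Of 20 pairs on the X chromosome, 3, 6 and 7 had a KDM2A peak in WT replicates 1 to 3 and 3, 4 and 8 in KO, which is 15 to 40%, against 74.3 to 86.8% of the 735 autosomal pairs. The male libraries (replicate 1) had the lowest count in each genotype. The 287 other island promoters of the X gave 6.27 to 27.9% and those of autosomes 57.6 to 69.0%, a gap in the same direction. No H3K36me2 peak lay on an X-linked pair in WT, and 2, 1 and 0 did in KO. H3K36me2 peaks lay on 0.348 to 5.92% of the other X-linked island promoters, and on 43.4 to 46.5% of autosomal pairs in WT and 12.8 to 40.5% in KO. The part of sex and of X copy number in these counts was not tested.

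The next question was whether KDM2A at these promoters differed between genotypes. A peak lay on 83.5% ± 1.25 of pairs in WT libraries and on 75.9% ± 5.13 in KO libraries (SD, n = 3), a difference of −7.55 points with no overlap between genotypes (two-sided exact permutation test, p = 0.1, 0.2125 adjusted over 34 genotype tests). It was −11.8 points in the male libraries and −5.43 points on average in the female libraries. When each list was shortened to the same number of its strongest peaks it was −1.02 points (exact p = 0.4). The central 1 kb was covered for 49.6% ± 6.04 in KO libraries and 58.4% ± 3.34 in WT libraries (SD, n = 3; overlapping, exact p = 0.3). The 2.5 kb downstream of the TSS was covered for 14.0% ± 2.67 and 18.4% ± 2.45 in the same order (overlapping, exact p = 0.2). The KO lists were all shorter, with peaks on 0.433% to 0.715% of the genome against 0.770% to 1.11% in WT. Cover of the central 1 kb divided by that percent was 93.0 ± 12.8 for KO libraries and 64.6 ± 8.57 for WT libraries (SD, n = 3). This ratio moved with the length of the lists, from which genotype cannot be told apart, and no genotype difference is read from it. The lead of pairs over other promoters was 42.6 ± 0.585 points in WT and 40.7 ± 1.94 points for KO libraries (SD, n = 3), with overlap between genotypes (exact p = 0.3). KO minus WT in this lead was −1.85 points, and it became −6.69 with peaks of a fold over 3 and −7.89 with a −log10 q of at least 2, both without overlap (exact p = 0.1), and −0.396 with lists of equal length (exact p = 0.7).

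Presence by list was uneven between genotypes. A KDM2A peak was found in at least 2 lists of both genotypes at 578 pairs, in at least 2 WT and at most 1 KO list at 64 (8.48%), and in at least 2 KO and at most 1 WT list at 30 (3.97%). The corresponding shares were 7.90% and 2.26% of the other promoters and 10.4% and 3.44% of the other island promoters. In 6 pairs (0.795%) all WT lists and no KO list held a peak, against 0.734% of the other promoters and 0.903% of those at islands, and no pair had the reverse pattern, which 0.108% of the other promoters and 0.129% of those at islands had. Of those 6, Cep128/Tshr had folds of 3.12, 2.96 and 3.20 in WT, Ccdc157/Sf3a1 of 3.28, 2.85 and 3.15, and Tmem68/Tgs1 of 2.93, 3.31 and 2.86. Tshr encodes the thyrotropin receptor, Sf3a1 a spliceosome protein and Tgs1 the enzyme that trimethylates caps of small nuclear RNAs. These folds lay near the WT median of 3.10 over all pairs.

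At the 392 pairs with a peak in every list the fold was tested with limma together with all 4777 such promoters, after each library was centred on its median. No pair passed an adjusted p of 0.05, as was so for all promoters (0%), and the lowest adjusted p was 0.901. At an unadjusted p under 0.05 there were 29 pairs (7.40%), against 5.21% of all promoters, 17 of them higher and 12 lower in KO. All KO values exceeded all WT values in 18 pairs (4.59%), beside 5.3% of all promoters, and lay below them in 24 (6.12%), beside 5.36%. These shares are near the background. The median change of the pairs was 0.0016, and 199 were positive and 193 negative, a balance that the centring largely sets (0.00085 over all promoters, 2400 positive and 2377 negative). Without centring the split turned, with 128 pairs positive and 264 negative and a median of −0.059, as over all promoters (1509 and 3268, −0.059). Of the 21 pairs then under an unadjusted p of 0.05, 4 were higher and 17 lower in KO, beside 38 and 247 of all promoters. All KO values then lay above all WT values in 13 pairs (3.32%, beside 2.18% of all promoters) and below them in 35 (8.93%, beside 10.0%). No direction is therefore given for the fold of the pairs as a group.

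Among the pairs whose genotypes did not overlap, those with the largest differences are given as a description. Ptcd1/Cpsf4, of a mitochondrial RNA-binding protein and an mRNA cleavage factor, had 3.24, 2.95 and 2.88 in WT and 5.00, 3.89 and 3.31 in KO, the largest positive difference among them (0.47 ± 0.15 SE, centred log2 scale, limma adjusted p = 0.901). Ska3/Mrpl57, of a kinetochore and a mitochondrial ribosomal protein, had 2.59, 2.85 and 3.16 against 3.71, 3.04 and 3.92, which overlap as deposited and separate only after centring. Deaf1/Tmem80 had 2.71, 2.96 and 3.00 against 3.19, 3.14 and 4.33. Prr11/Ska2, the latter again a kinetochore gene, had 2.83, 3.10 and 2.66 against 3.56, 3.36 and 3.18. KO values of these pairs were above WT by 0.30 to 0.47 on the centred log2 scale.

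In the opposite direction, Mfsd8/Abhd18, of a lysosomal membrane protein and a hydrolase-like protein, had 3.64, 3.64 and 3.99 in WT and 2.59, 2.63 and 2.82 in KO (−0.43 ± 0.11 SE, limma adjusted p = 0.901). Usp5/Cdca3, of a deubiquitinase and a regulator of mitotic entry, had 4.13, 4.01 and 3.64 against 3.05, 2.75 and 3.18. Zbtb26/Rabgap1 and Zbtb6/Rabgap1 share a gene and the same peaks, with 3.29, 3.60 and 3.46 against 2.63, 2.46 and 2.72. These WT values were higher in every library, and none of these differences passed the test over all promoters.

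**Figure D4:**
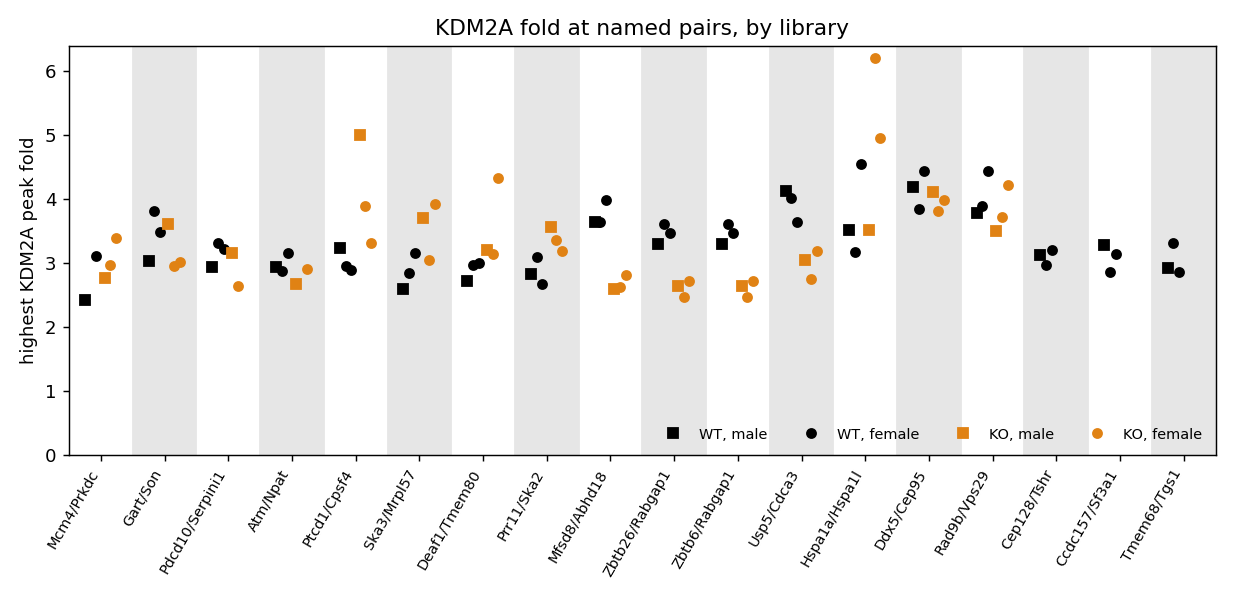
Highest KDM2A peak fold (linear scale) at named pairs in each library, WT black and KO orange, squares male and circles female; a missing symbol means no peak in that list. Ptcd1/Cpsf4 lies higher and Usp5/Cdca3 lower in KO, Ddx5/Cep95 overlaps, and Cep128/Tshr, Ccdc157/Sf3a1 and Tmem68/Tgs1 have WT symbols only.

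The ranking of pairs by fold was weakly shared between libraries. Spearman's rho across the pairs with a peak in both lists ran from 0.14 to 0.26 over the 15 pairs of libraries, and it was 0.17 to 0.26 within genotypes and 0.14 to 0.23 between them. These are descriptions across 460 to 582 promoters that share libraries and CpG content. Within a library, rho of fold with CpG number was 0.12 to 0.21.

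H3K36me2 was examined in the same regions. It covered little of the bidirectional promoters, least of all around the midpoint. In WT the mean covered percent of the region was 9.83%, 9.57% and 10.1% in replicates 1 to 3, and in KO 6.83%, 1.91% and 1.62%. Over 6 libraries it was 6.64% ± 3.96 in pairs and 7.22% ± 3.89 in other promoters (SD), lower in 5 of 6 libraries (exact sign-flip test, p = 0.0625). The share of regions with any H3K36me2 peak went the other way, with 33.0% ± 15.6 of pairs and 26.5% ± 10.6 of other promoters (SD, n = 6), higher in 5 of 6 libraries by 6.48 points on average (exact p = 0.0625). In KO replicates 2 and 3 the classes were nearly equal, with 12.6% and 13.4% of pairs against 12.5% and 13.4% of other promoters. Against other island promoters, at 34.3% ± 14.3, the pairs were lower in 4 of 6 libraries by 1.31 points (SD, n = 6; exact p = 0.15625). In covered percent, the difference from other island promoters, at 8.13% ± 4.62, was −1.48 points in 6 of 6 libraries (SD, n = 6; exact p = 0.03125).

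The position of the mark was compared next. Around the midpoint, 3.01% ± 2.08 of the central 1 kb was covered, against 5.17% ± 3.09 at other TSS and 4.10% ± 2.88 at other island TSS (SD, n = 6 libraries; lower in 6 of 6 for both, exact p = 0.03125). In the 2.5 kb downstream of the TSS the order was the opposite, with 6.79% ± 3.96 in genes of pairs, 5.63% ± 3.28 in other genes and 5.51% ± 3.55 in other island genes (SD, n = 6; higher in 6 of 6 for both, exact p = 0.03125). Upstream of the TSS, where a pair has its second gene, other genes had 8.94% ± 4.50 and other island genes 11.2% ± 5.82 (SD, n = 6). The 2.5 kb downstream of genes of pairs were below these by 2.15 and 4.39 points, each in 6 of 6 libraries (exact p = 0.03125).

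In the profile of WT libraries the pairs had 3.61% ± 0.045 of regions under H3K36me2 near the midpoint, 10.5% ± 0.872 at 2 kb on the minus side and 11.6% ± 0.436 on the plus side (SD, n = 3). Other island promoters had 18.3% ± 1.99 at 2 kb upstream and 9.76% ± 0.604 at 2 kb downstream. KO libraries gave 0.842% ± 1.01 near the midpoint and 4.03% ± 3.00 and 4.37% ± 3.25 at 2 kb on either side.

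**Figure D5:**
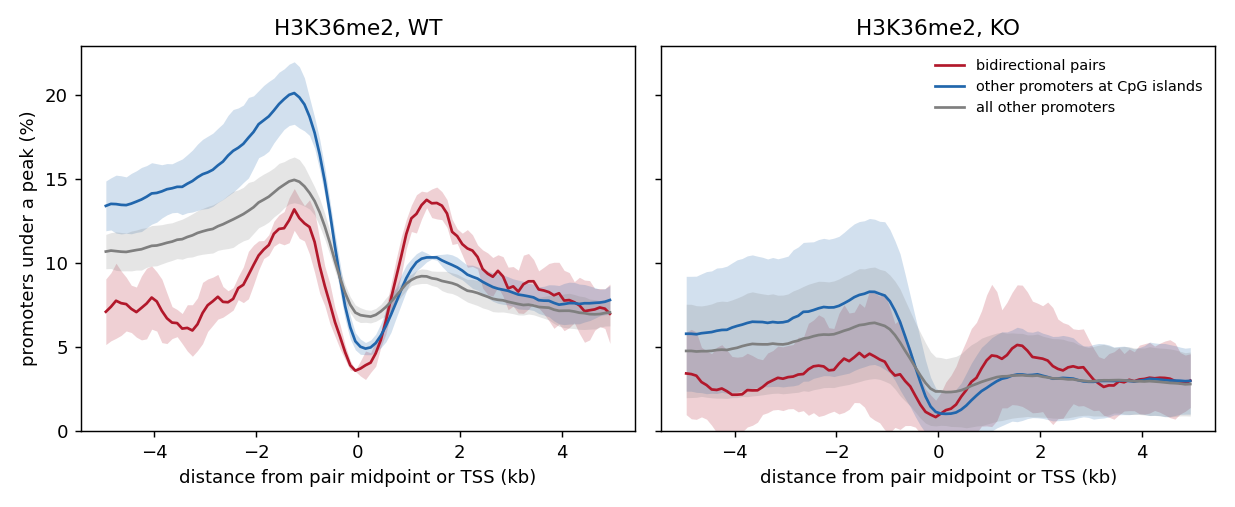
Percent of promoters under an H3K36me2 peak in bins of 100 bp up to 5 kb from the midpoint or TSS (other promoters run to the right), as mean of 3 libraries with SD as shading, WT left and KO right. In WT the pairs dip to 3.61% at the centre between shoulders of up to 13.8%, whereas other island promoters climb to 20.1% on the upstream side.

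By CpG number, WT pairs with 80 or more CpG were covered for 7.12% ± 0.747 and other promoters of that class for 11.3% ± 0.342, while with 20 to 39 CpG the values were 12.1% ± 0.496 and 11.0% ± 0.825 (SD, n = 3). These values were not tested.

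The marks were then read together. Of the pairs with a KDM2A peak in WT, 48.8%, 45.4% and 48.5% also had an H3K36me2 peak in the list of equal replicate number, against 57.3%, 56.6% and 59.6% of other island promoters with KDM2A. In KO the shares were 40.9%, 13.5% and 12.6% against 51.9%, 21.7% and 21.9%, so the pairs were lower in each library, without a test. Among regions without a KDM2A peak the order was the reverse, with 21.1 to 29.7% of pairs in WT against 15.7 to 19.7% of other island promoters, and with 36.5%, 10.2% and 16.8% in KO replicates 1 to 3 against 21.7%, 7.90% and 6.10%, higher in each library. The lists of equal number are not known to come from the same cells. H3K36me2 touched 15 pairs (1.99%) in all 6 lists and 180 (23.8%) in none, against 4.08% and 49.3% of other promoters and 3.70% and 32.9% of other island promoters. Ddx5/Cep95 and Gart/Son had KDM2A in all 6 lists and H3K36me2 in none.

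Between genotypes, H3K36me2 covered 9.84% ± 0.263 of the pairs' regions in WT libraries and 3.45% ± 2.93 in KO libraries (SD, n = 3), and no KO library reached a WT library (two-sided exact permutation test, p = 0.1, 0.2125 adjusted over 34 tests). The difference was −3.01 points in the male libraries and −8.07 points on average in the female libraries. KO replicates 2 and 3 had short lists, and after division by the percent of the genome under peaks of each list the genotypes overlapped, with a difference of −0.625 (exact p = 0.2). The −6.38 points became −2.69 with equal numbers of the strongest peaks (exact p = 0.1), −1.26 with a −log10 q of at least 2 (exact p = 0.1) and −0.021 with a fold over 3 (exact p = 0.9). WT libraries had 4.62% ± 0.394 of the central 1 kb covered, and KO libraries 1.40% ± 1.69 (SD, n = 3; exact p = 0.1). Relative to the genome percent these were 0.950 ± 0.136 and 0.492 ± 0.375 (exact p = 0.2). Pairs minus other promoters in covered percent came to −0.555 ± 0.601 points for WT libraries and −0.602 ± 0.223 points for KO libraries (SD, n = 3; exact p = 1.0). In share of regions with a peak it was 10.2 ± 1.69 points for WT and 2.79 ± 4.80 for KO libraries, without overlap (SD, n = 3; exact permutation test, p = 0.1, 0.2125 adjusted). Against other island promoters that share differed by −0.713 ± 1.44 and −1.90 ± 1.99 points, with overlap (SD, n = 3; exact p = 0.5).

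In limma, 264 pairs with a peak in at least 3 lists were fitted with all 6620 such promoters. A WT list held a peak at 44.1% ± 1.60 of pairs and a KO list at 21.9% ± 15.5 (SD, n = 3). Many pairs can therefore pass this filter through WT lists, which favours lower KO values among those fitted. No pair passed an adjusted p of 0.05 (0% of all promoters), with a lowest adjusted p of 0.153 among pairs. In simulated data this fit found only 12% of changes of 30 points, so the lack of calls does not exclude such changes. At an unadjusted p under 0.05 there were 46 pairs (17.4%), all lower in KO, against 22.4% of all promoters. All KO values were below all WT values in 68 pairs (25.8%), beside 27.4% of all promoters, and above them in 1 (0.379%), beside 0.317%. These shares are near or below the background, and the filter bears on their direction. With cover in at least 1 list as the filter, 27 of 575 pairs were under that p (4.70%, against 10.8% of all promoters), all lower in KO. All KO values were then below all WT values in 11.8% of pairs, beside 16.6% of all promoters. Cover divided by genome percent gave 20 pairs under that p (7.58%, against 8.97%), 3 higher and 17 lower in KO. Ranked within each library instead, 12 pairs were under an unadjusted p of 0.05 (4.55%, against 6.36% of all promoters), 11 of them higher in KO, beside 257 of 421 over all promoters. Without KO replicate 2, 7 pairs were under that p (2.79%, against 8.65% of all promoters), and without KO replicate 3, 4 pairs (1.60%, against 8.59%).

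The pairs with the widest H3K36me2 cover in WT are given by library. Surf4/Stkld1, of an endoplasmic reticulum cargo receptor and a kinase-like protein, was covered for 73.0%, 79.2% and 78.7% of its region in WT and 2.48%, 27.4% and 0% in KO, with KDM2A peaks in all 6 lists. Its WT and KO values did not overlap. Choosing pairs by their WT cover favours a lower KO value, so these values are a description with no test. Sec24a/Sar1b, both of the COPII coat, had 49.1%, 38.6% and 72.6% in WT against 0%, 0% and 7.45% in KO. Gorasp1/Ttc21a, with a Golgi stacking protein, had 16.2%, 82.5% and 51.5% against 10.8%, 11.1% and 1.76%. Nmur1/Tex44, of a neuropeptide receptor and a testis gene, had 51.0%, 70.7% and 77.1% against 90.4%, 0% and 20.6%, so its male KO library was the highest of all. It had no KDM2A peak in any list, 18 CpG in 1001 bases and no CpG between its start sites, as printed above.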

How the data were processed

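ChIP-seq peak lists of 12 libraries were used, 1 per library with no pooling, and the 6 input samples were not analysed here. Per the labels and the study's methods, the authors ran nf-core/chipseq, in which BWA placed reads on GRCm38 and MACS2 made the broad peak lists. The deposited fold is a ratio over the local control and is not normalized between libraries. The deposited −log10 p-value and −log10 q-value were used only for alternatives, and the smallest −log10 q of a list was 1.00 to 1.03. The MACS2 version and q threshold are not given in the sources used here.

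Members and lists were chosen with earlier results of these data known. Genes came from GENCODE M21 and sequence from GRCm38.p6 (RefSeq). A region had a peak when at least 1 bp overlapped, and its highest fold and covered percent were taken. CpG islands (16099) were computed from unmasked bases with a score of 17 per CpG and −1 per other base, keeping those longer than 200 bp with GC at or above 50% and an observed to expected CpG ratio above 0.6. Promoter classes were compared within libraries by a two-sided exact sign-flip test (n = 6) and genotypes by a two-sided exact permutation test (3 against 3), in Python 3.11.15 with scipy 1.17.1. Log2 highest fold, centred on library medians (peaks in 6 lists), and covered percent (peaks in at least 3 lists) were fitted across all promoters with limma 3.58.1 (R 4.3.3, eBayes with a trend, Benjamini-Hochberg threshold 0.05). The limma and overlap code was tested on simulated data. With the same spread for all promoters, limma found 12% of H3K36me2 changes of 30 points and 97% of those of 60 points. For KDM2A it found 89.5% of changes of 0.5 and 100% of those of 1 on the log2 scale. Alternatives covered window, peak threshold, list length, pair definition, comparison class, chromosomes and left-out libraries. Pairs were named by rule: textbook pairs, the 4 largest rises and falls of KDM2A without overlap of genotypes, the 4 of highest fold, up to 3 seen in 1 genotype only, 4 without a peak and 4 of widest H3K36me2. 2 pairs given by this rule, and some other results, are not reported here. Deviations of WT and KO libraries of equal replicate number correlated by at most 0.078. Such values cannot show whether these libraries shared a batch, which the sources do not say, so genotypes were compared unpaired.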

Additional observations from a re-analysis of the deposited data

Results flagged for a closer look

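The median log2 highest fold of KDM2A at bidirectional promoters differed in direction between the sexes. KO minus WT was 0.017 in the male libraries and −0.089 on average in the female libraries, where both KO values were below both WT values. The other promoters moved likewise, so the pattern was not particular to the pairs. Their median was 1.527 in the male WT library and 1.566 in the male KO library. In female libraries it was 1.654 and 1.571 for WT and 1.533 and 1.554 for KO. Each sex and genotype had 1 or 2 libraries, so whether the sexes differ was not tested.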

How the results depend on the processing

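The lead of pairs over other promoters in KDM2A share was positive under each alternative run, from 16.1 to 45.7 points. The KO-minus-WT difference in KDM2A share was negative under each alternative run, from −1.02 to −15.8 points, as was that in H3K36me2 cover, from −0.021 (peaks of a fold over 3) to −8.07 (without KO replicate 1). The KO-minus-WT difference in the KDM2A lead ran from −0.396 to −7.89. Without each library in turn, the lead was 41.4 to 42.2 points and the difference in median log2 fold 0.033 to 0.039, with exact p = 0.0625, the smallest that 5 libraries allow. With peaks of a fold over 3 only, the difference in log2 fold was 0.0043 (exact p = 0.4375). H3K36me2 cover of pairs minus others, −0.578 in the report, reached exact p = 0.03125 with a 1 kb window (−1.18), equal numbers of peaks (−1.07), TSS at most 300 bp apart (−0.677), autosomes only (−0.797) and island promoters as comparison (−1.48). It shrank to −0.377 with overlapping 5′ ends included (exact p = 0.125) and to −0.366 with a −log10 q of at least 2 (exact p = 0.09375). With peaks of a fold over 3 only, the cover difference was −0.0011. The difference of genotypes in that distance, −0.047 in the report, turned positive with a 1 kb window (0.665), equal numbers of peaks (0.635), a −log10 q of at least 2 (0.190), TSS at most 300 bp apart (0.0973), autosomes only (0.118) and island promoters (1.29), and lay between −0.240 and 0.299 without each library in turn, so no direction is given for it. The cause of these changes was not tested. No limma fit called a pair in any alternative. A replicate block left the difference in KDM2A share at −7.55 points and that in H3K36me2 cover at −6.38 points (exact sign-flip test over 3 pairs, p = 0.25, the smallest possible), and called no pair in limma. Depth is unknown, so a region without a peak cannot be called unbound.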
